A study of Oryctolagus cuniculus with 35 samples.

Results

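CD14 and CD163, a pair of receptors carried by monocytes and macrophages, were followed in messenger RNA of rabbit lung. They were chosen by symbol: 1 row of the deposited tables is named CD14 (ENSOCUG00000004218) and 1 is named CD163 (ENSOCUG00000003958), which makes 2 of 23669 genes. The study sequenced lung pieces of 35 New Zealand rabbits, 7 in each of 5 groups, with 1 library per rabbit. The healthy group (Group A) had neither pneumonia nor a therapy and is labelled as given NaCl. The 4 other groups all had pneumococcal pneumonia together with adverse mechanical ventilation, and each was given something else 4 hours after the bacteria: NaCl (Group B), human umbilical cord-derived mesenchymal stem cells (MSC) at 3000000 cells per kg into a vein (Group C), ceftaroline, a cephalosporin antibiotic, at 20 mg per kg into a muscle (Group D), or both together (Group E, called the combined group here). Lungs were taken 24 hours after the bacteria, or at death where a rabbit died before that. The stem cells are human cells in a rabbit host, and the labels do not say whether the healthy rabbits were ventilated. The study compared NaCl with healthy, MSC with NaCl, ceftaroline with NaCl, and the combined group with ceftaroline.

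CD14 is a protein anchored to the outer face of the cell membrane, and also found free in plasma, that picks up bacterial lipopolysaccharide and lipoproteins and passes them to Toll-like receptors. Blood monocytes carry much of it, and neutrophils carry less. CD163 is a scavenger receptor restricted to monocytes and macrophages. It takes up haemoglobin bound to haptoglobin after red cells have burst, and glucocorticoids, interleukin 10 and interleukin 6 raise its production, while the protease ADAM17 cuts it from the cell surface.

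The libraries held between 7567008 and 33209729 reads assigned to genes, and the deepest were in the ceftaroline group. Of the titles, 5 in the healthy group, 3 in the NaCl group and 2 in the MSC group end in PD or PG, which the labels do not explain, and none do in the 2 ceftaroline groups. The mark S00, also unexplained, stands in the names of all 7 healthy libraries and of NaCl library 2. Marker genes of lung epithelium were present, with summed levels of 216371 to 326391 in the healthy group, although SFTPC, SFTPD, ABCA3, SCGB1A1 and FOXJ1 were listed at 0 in all 35 libraries. Among markers of monocytes, VCAN, CSF1R and CLEC4E were among those measured, and ITGAM and PLAUR were listed at 0 in every library. Among those of macrophages, 15 of 16 with a row passed the filter on low values, and ITGAX was listed at 0. Of the 23669 genes, 10217 were listed at 0 in all 35 libraries. Whether a gene listed at 0 was absent from the RNA or was not counted was not tested.

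The level of CD14 was low and even in healthy lung and higher in each pneumonia group. Levels are given as normalized reads, the reads of the gene divided by a size factor set over all 35 libraries. The healthy group ranged from 1770 to 3429 with a median of 2279. In the NaCl group, CD14 ranged from 6232 to 33674 with a median of 21200. No NaCl library came down to the level of any healthy library, and the spread within the NaCl group was far wider than among the healthy rabbits.

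The treated groups lay between these for CD14. MSC libraries ranged from 4671 to 29559 with a median of 9527. Ceftaroline libraries ranged from 4555 to 25965 with a median of 13397. The combined group ranged from 2959 to 14298 with a median of 4878. The combined group was the lowest of the 4 pneumonia groups by its mean, median and highest library, and was the only 1 of them with a library inside the healthy range.

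CD163 had far fewer reads, so that each value carries more counting error. Healthy libraries held 5 to 98 reads of CD163, or 5.16 to 101 normalized reads with a median of 25.5. The NaCl group ranged from 90.4 to 2389 with a median of 278. Library 1 of the NaCl group, at 2389, stood far above the other 6, which ended at 435. The lowest NaCl library, at 90.4, lay below the highest healthy library, so these groups overlapped.

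For CD163 the treated groups were close to each other. MSC libraries ranged from 95.2 to 645 with a median of 226. Ceftaroline libraries ranged from 102 to 523 with a median of 244. The combined group ranged from 59.1 to 704 with a median of 176. The MSC range touches the healthy group at its low end, and 2 of the 7 combined libraries lay inside the healthy range.

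**Figure D1:**
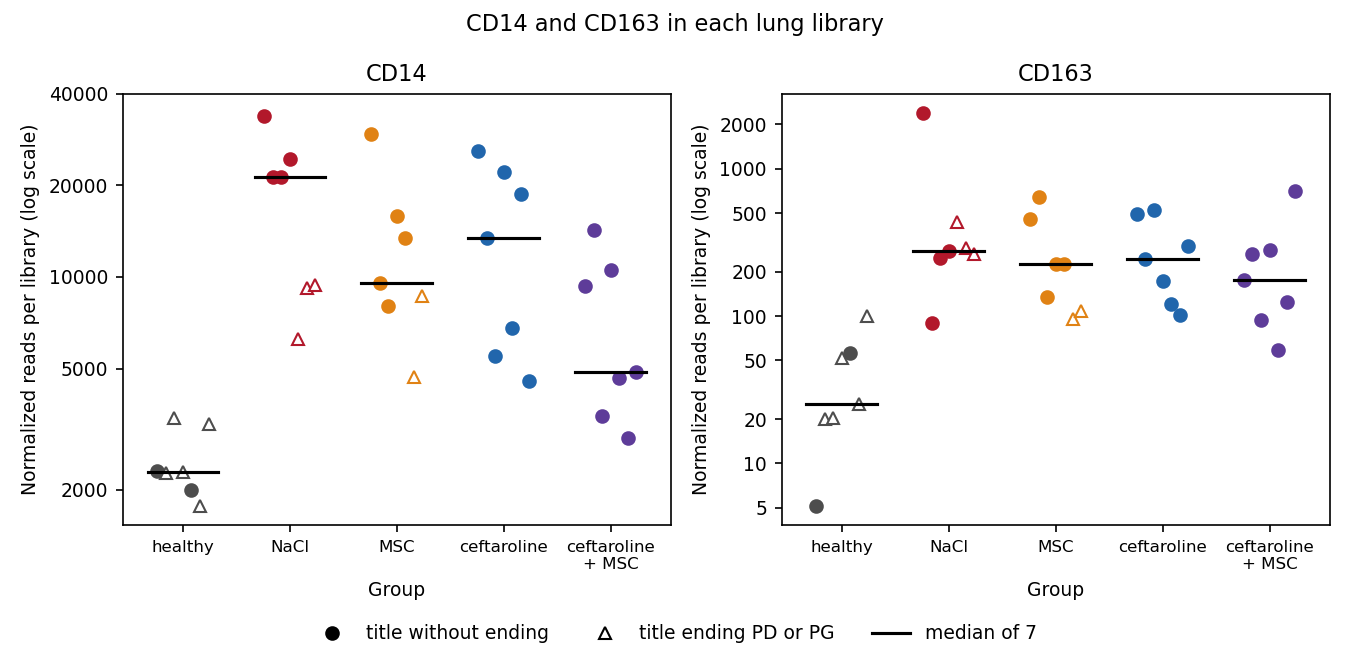
Normalized reads of CD14 (left) and CD163 (right) in each of the 35 libraries on log axes, by group; triangles are libraries whose title ends in PD or PG and bars are medians. The CD14 medians run from 2279 in the healthy group to 21200 in the NaCl group, and 1 NaCl library reaches 2389 for CD163.

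Both receptors had the same order of groups by mean log2 level: NaCl highest, then ceftaroline, MSC, the combined group and healthy. The mean levels of CD14 were 17910 ± 9981 for NaCl, 13855 ± 8611 for ceftaroline, 12812 ± 8242 for MSC, 7163 ± 4278 for the combined group and 2477 ± 635 for healthy (SD, n = 7 each). Those of CD163 were 570 ± 808 for NaCl, 279 ± 170 for ceftaroline, 271 ± 206 for MSC, 243 ± 219 for the combined group and 40.0 ± 32.4 for healthy (SD, n = 7 each). Without library 1, the NaCl mean of CD163 was 267 ± 110 (SD, n = 6), close to those of ceftaroline and MSC. Of the 8 neighbouring pairs in these orders, those of the combined group with healthy differed, by 1.35 for CD14 and 2.60 for CD163 on the log2 scale (exact two-sided permutation test, adjusted p = 0.00932 over the 8 pairs for each). The 6 other neighbouring pairs did not differ beyond their spread (exact permutation test, adjusted p from 0.260 to 0.924), so the order among the pneumonia groups is not established by these pairs.

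Pneumonia with ventilation came with higher messenger RNA of both receptors. In the fit of the deposited table of NaCl and healthy libraries, CD14 was 6.42-fold higher (log2 difference 2.68, SE 0.33, 95% interval 1.98 to 3.39, adjusted p = 6.02e-06, limma on log2(normalized reads + 1)). CD163 was 11.2-fold higher (log2 difference 3.49, SE 0.65, 95% interval 2.12 to 4.86, adjusted p = 0.000251, limma). All 7 NaCl libraries exceeded the highest healthy library for CD14, and 6 of 7 did so for CD163. In a bulk sample, more RNA per cell and more cells of a type cannot be told apart. The unexplained mark S00 stands on all 7 healthy libraries and, among pneumonia libraries, only on NaCl library 2. Pneumonia and the mark can thus hardly be told apart. That library held 21200 normalized reads of CD14, above the healthy range, and 90.4 of CD163, inside it. Of the 9545 genes tested in this table, 60.6% were called in either direction, 29.7% were called higher and 30.9% lower, and 14.7% were higher with no overlap of the groups. Being called was thus common in this table. By size, CD14 ranked 246 and CD163 ranked 137 from the largest rise among these genes. The authors' deposited table gives log2 fold changes of 2.87 for CD14 and 3.85 for CD163, with adjusted p-values of 1.21e-16 and 1.28e-08.

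The estimated CD14 rise was larger in libraries without a title ending than in those with 1. The 4 NaCl libraries without an ending held 21200 to 33674 normalized reads of CD14, and the 3 with an ending held 6232 to 9368. These subsets did not overlap (log2 difference -1.60, exact two-sided permutation test, p = 0.0571, the smallest this split allows). Against healthy libraries split in the same way, CD14 was 3.54 higher on the log2 scale without endings and 1.70 higher with them (limma, adjusted p = 0.000187 and 0.000223), and the difference between these rises was not tested. This split takes PD and PG together. Without endings it leaves 2 healthy and 4 NaCl libraries, so a call lost there does not show a dependence on the ending. The NaCl libraries with an ending all end in PG, and the healthy libraries with an ending end in PD except library 6, in PG. CD163 overlapped between these subsets of the NaCl group, with 90.4 to 2389 without an ending and 264 to 435 with 1, and its rise was 4.21 and 3.15 (limma, adjusted p = 0.0378 and 0.000439). In the MSC group, CD14 ran from 8013 to 29559 in the 5 libraries without an ending and from 4671 to 8653 in the 2 with 1. These subsets overlapped (log2 difference -1.11, exact two-sided permutation test, p = 0.190). In the healthy group the log2 difference of CD14 was 0.24 (exact two-sided permutation test, p = 0.667). What the endings stand for was not tested.

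The partners of CD14 in sensing bacteria moved unequally between NaCl and healthy lung. Of 12 genes on a list of these partners, 8 could be tested, 6 were higher and 2 were lower, with a median log2 difference of 1.02 against 0.0046 over all genes tested. Of all genes tested in this comparison, 29.7% were called higher and 30.9% lower. CD36, a scavenger receptor for lipids that also presents bacterial lipopeptides, fell by 2.72 on the log2 scale (4332 ± 731 normalized reads in healthy and 707 ± 343 in NaCl, SD, n = 7 each, in the scaling of that table, as for the other means of this comparison, limma, adjusted p = 2.24e-07). BPI, a neutrophil protein that binds and neutralizes lipopolysaccharide, rose by 2.71 (269 ± 154 and 1684 ± 945, limma, adjusted p = 8.01e-05). LY96, the small protein that completes the lipopolysaccharide receptor, rose by 1.43, and TLR2, the receptor for lipoproteins of Gram-positive bacteria such as the pneumococcus, rose by 0.88 (limma, adjusted p = 0.00914 and 0.0300). TLR1 and TLR6, which pair with TLR2, rose by 1.07 and 1.02. In the 2 healthy and 4 NaCl libraries without a title ending they were at 0.85 and 0.55 and not called (limma, adjusted p = 0.321 and 0.605). CD180, a relative of the Toll-like receptors on B cells and macrophages, fell by 0.93 and was also not called without title endings, at -0.97 (limma, adjusted p = 0.0243 and 0.139). TLR4 and NOD2 were listed at 0 in all 35 libraries, as were 10217 of the 23669 genes. Their RNA cannot be called absent from this.

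Downstream of these receptors, 4 of 6 testable adaptors, kinases and brakes were higher and none lower, beside 29.7% and 30.9% of all genes tested. Their median log2 difference was 1.53. TNFAIP3, an enzyme that dampens NF-kB signalling, rose by 4.11 (34.0 ± 13.0 in healthy and 678 ± 375 in NaCl, SD, limma, adjusted p = 2.42e-07). IRAK3, a brake on Toll-like receptor signalling that monocytes and macrophages make, rose by 1.78 (limma, adjusted p = 6.28e-06). NFKBIA, the inhibitor that holds NF-kB in the cytoplasm, rose by 2.06, and TIRAP, a bridging adaptor, by 1.28 (limma, adjusted p = 5.64e-05 and 0.00201). TRAF6 and IRAK4 were not called, with differences of 0.40 and 0.01. MYD88, IRAK1, IRAK2 and TOLLIP were listed at 0 in all 35 libraries, which does not show that their RNA was absent.

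Around CD163, 7 of 10 testable genes of haem and iron handling were higher and 2 lower, beside 29.7% and 30.9% of all genes tested. Their median log2 difference was 1.78. HP encodes haptoglobin, the plasma protein that brings haemoglobin to CD163, and it rose by 5.46 (995 ± 1229 in healthy and 30540 ± 12203 in NaCl, SD, limma, adjusted p = 3.65e-07). HMOX1, the inducible enzyme that breaks down haem, rose by 3.64 (1562 ± 324 and 22861 ± 15515, SD, limma, adjusted p = 3.31e-07). HPX, the haem-binding plasma protein hemopexin, rose by 5.14, while SLC40A1, the iron exporter ferroportin, fell by 3.02 (limma, adjusted p = 2.67e-06 and 5.85e-07). None of 3 red cell genes was called.

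Of the signals that act on CD163, 4 of 6 testable genes were higher and none lower, beside 29.7% and 30.9% of all genes tested. Their median log2 difference was 1.87. IL6 went from 2.73 ± 2.13 to 17313 ± 13961 normalized reads (SD, log2 difference 11.82, limma, adjusted p = 4.97e-09). STAT3, the transcription factor through which interleukin 6 and interleukin 10 act, rose by 2.14 (limma, adjusted p = 3.19e-07). IL10 rose by 4.12 and IL6R by 1.60 (limma, adjusted p = 4.51e-05 and 6.90e-05). NR3C1, the glucocorticoid receptor, was not called, with a difference of 0.25. Glucocorticoid-responsive genes split, with 3 of 7 higher and 3 lower, beside the same 29.7% and 30.9% of all genes. DUSP1, a phosphatase that switches off MAP kinases, rose by 2.47 and ANXA1, an anti-inflammatory lipid-binding protein, by 1.94 (limma, adjusted p = 2.03e-07 and 6.22e-07). FKBP5, a chaperone that restrains the glucocorticoid receptor, rose by 2.00, and TSC22D3, a leucine zipper protein that glucocorticoids induce, fell by 0.82 (limma, adjusted p = 0.000270 and 0.00984). In the libraries without a title ending none of these genes was called lower, with TSC22D3 at -0.90, KLF9 at -0.30 and ZBTB16 at -0.29 (limma, adjusted p = 0.0516, 0.381 and 0.592).

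**Figure D2:**
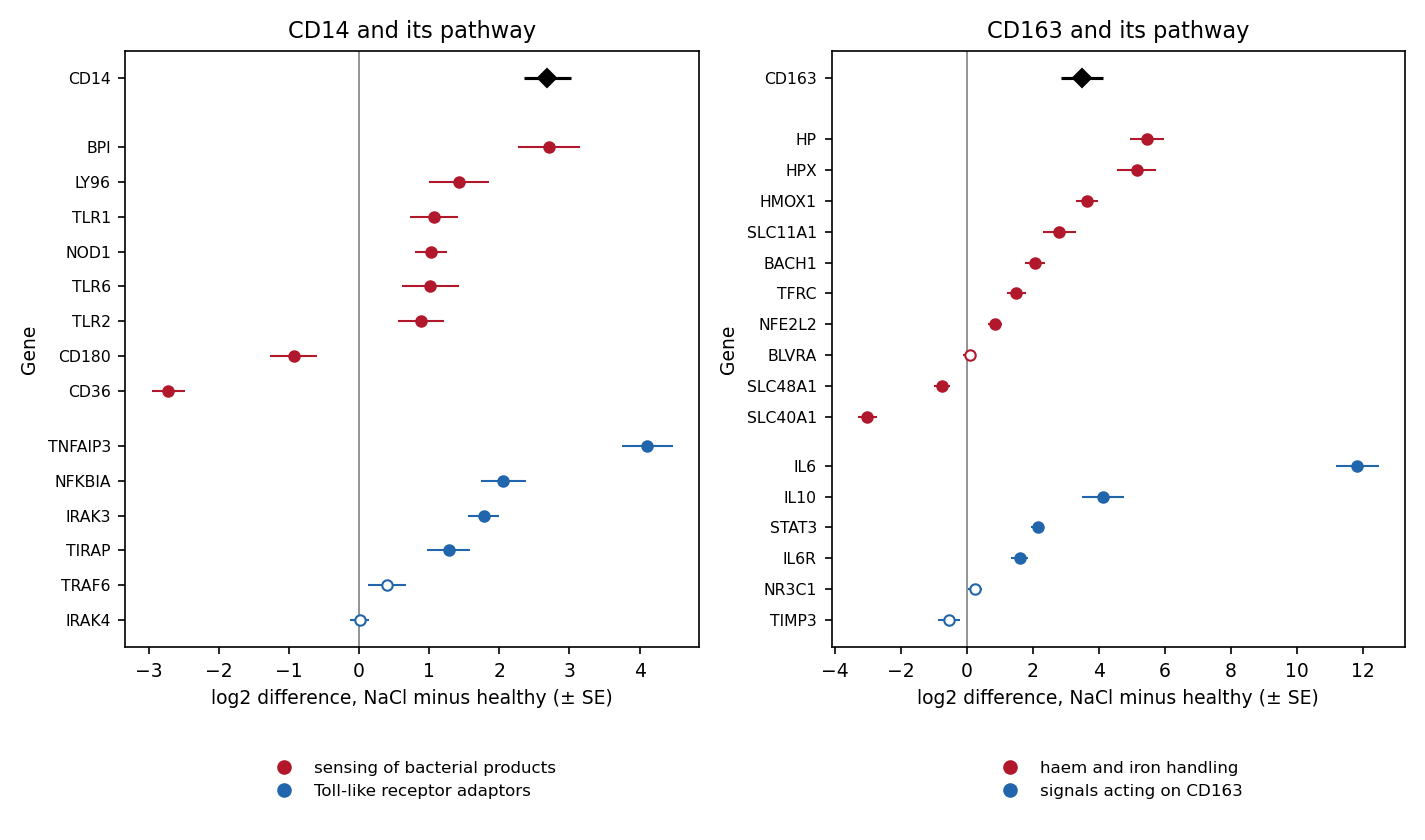
Log2 differences (NaCl minus healthy, ± SE) from limma fits of 14 libraries for CD14 with genes of its pathway (left) and CD163 with genes of its pathway (right); filled points have an adjusted p under 0.05. CD14 at 2.68 lies beside BPI at 2.71 while CD36 lies at -2.72, and CD163 at 3.49 lies between HP at 5.46 and SLC40A1 at -3.02.

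Monocyte markers were higher in the NaCl group, and macrophage markers were called higher about as often as all genes. All 4 testable monocyte markers were called, including VCAN, a matrix proteoglycan, by 1.95 and CLEC4E, a lectin receptor, by 3.76 (limma, adjusted p = 6.12e-07 and 0.000102). Their summed level was 2180 to 4169 in healthy libraries and 5017 to 28950 in NaCl libraries. CSF1R, a growth factor receptor, was called at 1.14 but not in the libraries without a title ending, at 1.37 (limma, adjusted p = 0.0182 and 0.0685). Of 15 testable macrophage markers, 4 were higher and 2 lower, beside 29.7% and 30.9% of all genes tested, led by the scavenger receptor MSR1 at 2.49 and the fatty acid binding protein FABP4 at 1.66 (limma, adjusted p = 2.97e-05 and 0.00181). None was lower in the libraries without a title ending, where PPARG at -0.97 and STAB1 at -0.57 lost their calls (limma, adjusted p = 0.0590 and 0.403). On all 14 libraries edgeR called 1 lower. MRC1 and LYVE1, both called higher on all 14, also lost their calls without endings, at 1.45 and -0.26 (limma, adjusted p = 0.105 and 0.556). The summed level of the macrophage markers was 9483 to 13281 in healthy and 12590 to 43403 in NaCl libraries. Of 5 testable relatives of CD163 with the same cysteine-rich domains or scavenger role, MSR1 was higher and SCARA5, a ferritin receptor, was lower by 2.04 (limma, adjusted p = 0.00620). Without title endings SCARA5 was at -2.88 and not called (limma, adjusted p = 0.0577), and 2 of these relatives were higher.

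Markers of other cells moved between the same groups, where 29.7% of all genes tested were called higher and 30.9% lower. All 6 testable neutrophil markers were higher, led by the antimicrobial peptide gene CAMP at 7.51 and the decoy receptor IL1R2 at 6.05 (limma, adjusted p = 1.65e-07 and 4.74e-07), and their summed level went from 15340 to 117524 in healthy libraries to between 179223 and 1651850 in NaCl libraries. CSF3R and MMP9 of that list were listed at 0. Of 7 epithelial markers 5 were lower, led by SLC34A2 at -3.83 and EMP2 at -2.06; of 6 endothelial markers 4 were lower, among them TEK at -2.19 and KDR at -1.45, and 1 was higher; of 8 mesenchymal markers 4 were lower, led by TCF21 at -2.83 and PDGFRB at -1.89. None of 3 T and natural killer cell markers and none of 5 B and plasma cell markers was called, and those with the lowest p were IL7R at 0.46 and CD79B at -0.45. The part of these cell markers in the rise of CD14 and CD163 was not tested.

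With stem cells alone, neither receptor differed from the NaCl group beyond the spread between rabbits. CD14 in the MSC group was 0.726 times that in the NaCl group (log2 difference -0.46, SE 0.44, 95% interval -1.39 to 0.47, adjusted p = 0.612, limma). CD163 was 0.647 times the NaCl level (log2 difference -0.63, SE 0.60, 95% interval -1.91 to 0.66, adjusted p = 0.618, limma). Each receptor lay below the NaCl mean in 6 of 7 MSC libraries. For CD163 library 1 of the NaCl group set that mean, and the other 6 NaCl libraries lay below it too. No gene of 9446 was called here by limma (0.0%), 1672 had an unadjusted p under 0.05, edgeR called none and DESeq2 called 336, without either receptor. Without library 1 of the NaCl group the difference was -0.27 for CD14 and -0.16 for CD163. Libraries without a title ending gave -0.84 for CD14 (limma, adjusted p = 0.227) and -0.25 for CD163, and the 3 NaCl and 2 MSC libraries with 1 gave -0.34 and -1.63 (limma, adjusted p = 0.786 and 0.751).

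Ceftaroline alone gave differences of the same sign and a similar size. CD14 was 0.752 times the NaCl level (log2 difference -0.41, SE 0.48, 95% interval -1.42 to 0.60, adjusted p = 0.676, limma). CD163 was 0.710 times the NaCl level (log2 difference -0.49, SE 0.58, 95% interval -1.74 to 0.75, adjusted p = 0.683, limma). Of the 7 ceftaroline libraries, 4 lay below the NaCl mean for CD14 and all 7 did so for CD163, where library 1 of the NaCl group set that mean. No gene of 9614 was called by limma (0.0%), 1760 had an unadjusted p under 0.05, edgeR called none and DESeq2 called 501, without either receptor. Without NaCl library 1 the differences were -0.22 for CD14 and -0.02 for CD163, so the CD163 difference rests on that library. Without title endings CD14 differed by -1.10 (limma, adjusted p = 0.276). The MSC and ceftaroline comparisons share the 7 NaCl libraries. The authors' deposited table gives -0.47 and -0.36 for CD14 and -1.06 and -1.02 for CD163 in the MSC and the ceftaroline comparison, with adjusted p-values from 0.330 to 0.700.

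Adding stem cells to ceftaroline came with a lower mean of both receptors, within the spread. CD14 in the combined group was 0.539 times the ceftaroline level (log2 difference -0.89, SE 0.47, 95% interval -1.89 to 0.11, unadjusted p = 0.0773, adjusted p = 0.444, limma). Of the combined libraries, 6 of 7 lay below the ceftaroline mean of CD14, and 2 lay below its lowest library. CD163 was 0.768 times the ceftaroline level (log2 difference -0.38, SE 0.52, 95% interval -1.50 to 0.74, adjusted p = 0.715, limma). Of 9924 genes, 4 were called (0.0403%). The authors' deposited table gives -0.96 for CD14 with an adjusted p of 0.316, and -0.20 for CD163 with an adjusted p of 0.859.

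The combined group was also set against the groups that share no table with it, in 1 fit over all 35 libraries. CD14 was 0.400 times the NaCl level in the combined group (log2 difference -1.32, SE 0.43, 95% interval -2.19 to -0.45, adjusted p = 0.0190, limma), where 15.3% of 10276 genes were called lower. The call was lost without library 6 of the combined group, at -1.15 (limma, adjusted p = 0.0530). Among libraries without a title ending the difference was -2.01 (limma, adjusted p = 0.00640). CD163 in the combined group was 0.539 times the NaCl level (log2 difference -0.89, SE 0.61, 95% interval -2.13 to 0.34, adjusted p = 0.267, limma), and it was -0.42 without library 1 of the NaCl group. Whether CD14 and CD163 differ in this comparison was not tested.

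Against healthy lung, both receptors were higher in each treated pneumonia group. The mark S00 stands on all 7 healthy libraries and on no treated library, so it cannot be told apart from pneumonia in these comparisons. CD14 was 4.55-fold higher with MSC (log2 difference 2.19, adjusted p = 0.000158) and 4.71-fold higher with ceftaroline (log2 difference 2.23, adjusted p = 9.71e-05), in the limma fit over 35 libraries, where 26.1% and 27.9% of the genes were called higher. CD163 was 7.17-fold higher with MSC and 7.84-fold higher with ceftaroline (limma, log2 differences 2.84 and 2.97, adjusted p = 0.000382 and 0.000196). In the combined group CD163 was 6.05-fold higher (log2 difference 2.60, 95% interval 1.36 to 3.83, adjusted p = 0.00211, limma), where 18.6% of genes were called higher. CD14 there was 2.54-fold higher (log2 difference 1.35, 95% interval 0.48 to 2.22, adjusted p = 0.0162, limma). That last call was lost without library 2 of the combined group, at 1.14 (limma, adjusted p = 0.0505), among libraries without a title ending, at 1.52 (limma, adjusted p = 0.116), and with the ending as a covariate, at 0.73 (limma, adjusted p = 0.282).

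No difference between the single therapies was detected. Ceftaroline minus MSC was 0.05 for CD14 (95% interval -0.82 to 0.92) and 0.13 for CD163 (95% interval -1.11 to 1.36) on the log2 scale, with an adjusted p of 1.00 for each by limma and 0.0% of genes called. The combined group minus MSC was -0.84 for CD14 (95% interval -1.71 to 0.03, limma, adjusted p = 0.513) and -0.25 for CD163 (95% interval -1.48 to 0.99, limma, adjusted p = 0.900), where 0.0292% of genes were called. The change of the MSC effect by ceftaroline was -0.41 for CD14 (SE 0.60, 95% interval -1.64 to 0.82, adjusted p = 0.969, limma) and 0.27 for CD163 (SE 0.86, 95% interval -1.48 to 2.02, adjusted p = 0.994, limma), and 0.00973% of genes were called. For CD163 these intervals leave room for differences of over 1 unit of log2 in either direction, except that the combined group minus MSC ended at 0.99 upward.

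**Figure D3:**
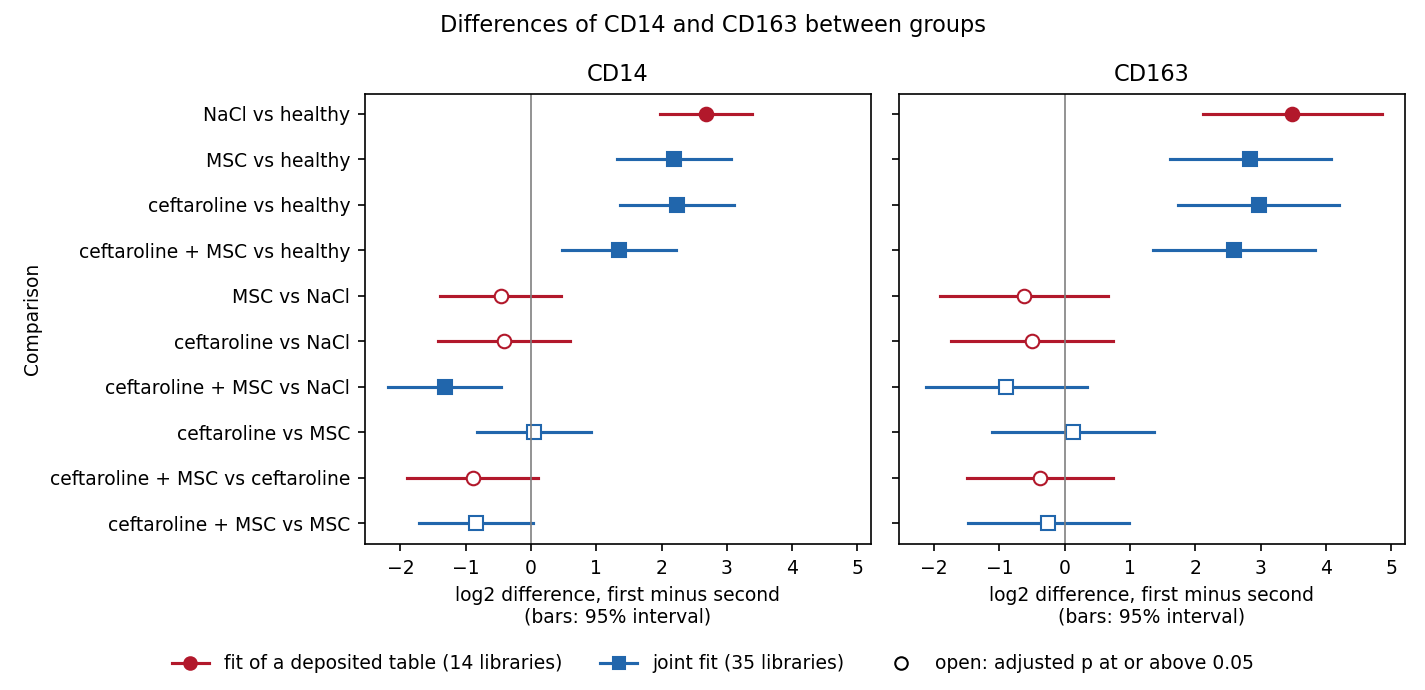
Log2 differences of CD14 (left) and CD163 (right) between groups with 95% intervals; circles are limma fits of a deposited table of 14 libraries, squares the fit over 35 libraries, and filled symbols have an adjusted p under 0.05. The 4 comparisons with healthy lung lie between 1.35 and 3.49, and of the others CD14 in the combined group against NaCl, at -1.32, is filled.

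Genes of the receptors' pathways passed no test in the 3 treatment comparisons: 0 members of the 15 lists were called by limma or by edgeR, where limma called 0.0%, 0.0% and 0.0403% of all genes tested. Among signals acting on CD163, all 6 tested had a negative difference with MSC, from NR3C1 at -0.19 to IL6 at -3.14, and STAT3 had the lowest p, at -0.68 (limma, adjusted p = 0.717, 0.234 and 0.192). With ceftaroline 5 were below 0 and 1 above. The median over all genes tested was 0.01 with MSC and 0.02 with ceftaroline. IL6 was at -3.17 with ceftaroline (limma, adjusted p = 0.192). HMOX1 had the lowest p of the haem genes in each treatment comparison, at -1.69, -1.41 and -1.18 for MSC, ceftaroline and the combined group (limma, adjusted p = 0.159, 0.146 and 0.385). TNFAIP3 was at -1.98 with MSC and IRAK3 at -0.82 in the combined group against ceftaroline (limma, adjusted p = 0.159 and 0.430). Among macrophage markers the complement gene C1QC was at 1.04 with MSC and 1.13 with ceftaroline (limma, adjusted p = 0.256 and 0.188), opposite in sign to CD163 in these comparisons. Of the 15 macrophage markers tested, 13 were above 0 with MSC and 12 with ceftaroline, beside these all-gene medians near 0. Both counts use the same 7 NaCl libraries.

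No relation between CD14 and CD163 from rabbit to rabbit passed the test. The balance between them, the log2 ratio of CD163 to CD14 in a library, averaged -6.32 ± 1.30 in healthy, -5.50 ± 1.49 in NaCl, -5.67 ± 0.82 in MSC, -5.59 ± 1.49 in ceftaroline and -5.07 ± 1.14 in the combined group (SD, n = 7 each). The reads are not corrected for gene length, so the ratio is read between groups only. No difference passed the test in the 4 comparisons of the study (exact two-sided permutation test, adjusted p = 0.917 for each), and the NaCl group was 0.82 above healthy. Within the 5 groups, Pearson's r of CD14 with CD163 ran from -0.17 in ceftaroline to 0.64 in MSC, and Spearman's rho from -0.21 to 0.71 (exact permutation tests, adjusted p from 0.298 to 0.744 for r). Over the 28 pneumonia libraries with group means subtracted, r was 0.27 and rho 0.28 (permutation test, p = 0.197 and 0.165, adjusted p = 0.379 and 0.333 over 20 relations), and r was 0.25 without the 2 libraries farthest from the median of CD14.

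CD14 followed markers of myeloid cells across the same 28 libraries. With the summed monocyte markers r was 0.88 and rho 0.89 (permutation test within groups, p = 1e-05 for each, the smallest the permutations can give, adjusted p = 0.0001), and r was 0.87 without the 2 farthest libraries. Within single groups this r lay between 0.81 and 0.95. With the summed neutrophil markers r was 0.85 and rho 0.86 (permutation test, p = 1e-05 for each, adjusted p = 0.0001), and 0.82 without the 2 farthest libraries. S100A9 and S100A8 made up 60.5% and 35.4% of that sum. With the summed macrophage markers r was 0.64 and rho 0.67 (permutation test, p = 0.0006 and 0.00033, adjusted p = 0.0024 and 0.00165), and 0.61 without the 2 farthest libraries. In the 23 libraries without a title ending these r were 0.83, 0.84 and 0.63. Within the 14 libraries with CD14 below its group mean and the 14 above it, r with the monocyte sum was 0.82 and 0.45.

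CD163 passed the test with the macrophage markers, and not with the others. With the summed macrophage markers r was 0.60 and rho 0.56 (permutation test within groups, p = 0.00364 and 0.00407, adjusted p = 0.0104 and 0.0136). It was 0.46 without the 2 farthest libraries and 0.56 without title endings, and within single groups it ran from -0.26 in ceftaroline to 0.94 in NaCl, where library 1 was highest for both. With the summed monocyte markers r was 0.26 and with the neutrophil markers 0.24, rho being 0.22 and 0.23 (permutation test, p = 0.227 for each r, adjusted p = 0.379 for each r). Whether CD14 and CD163 differ in these correlations was not tested. The libraries share their groups, their depth and the composition of 1 tissue piece.

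**Figure D4:**
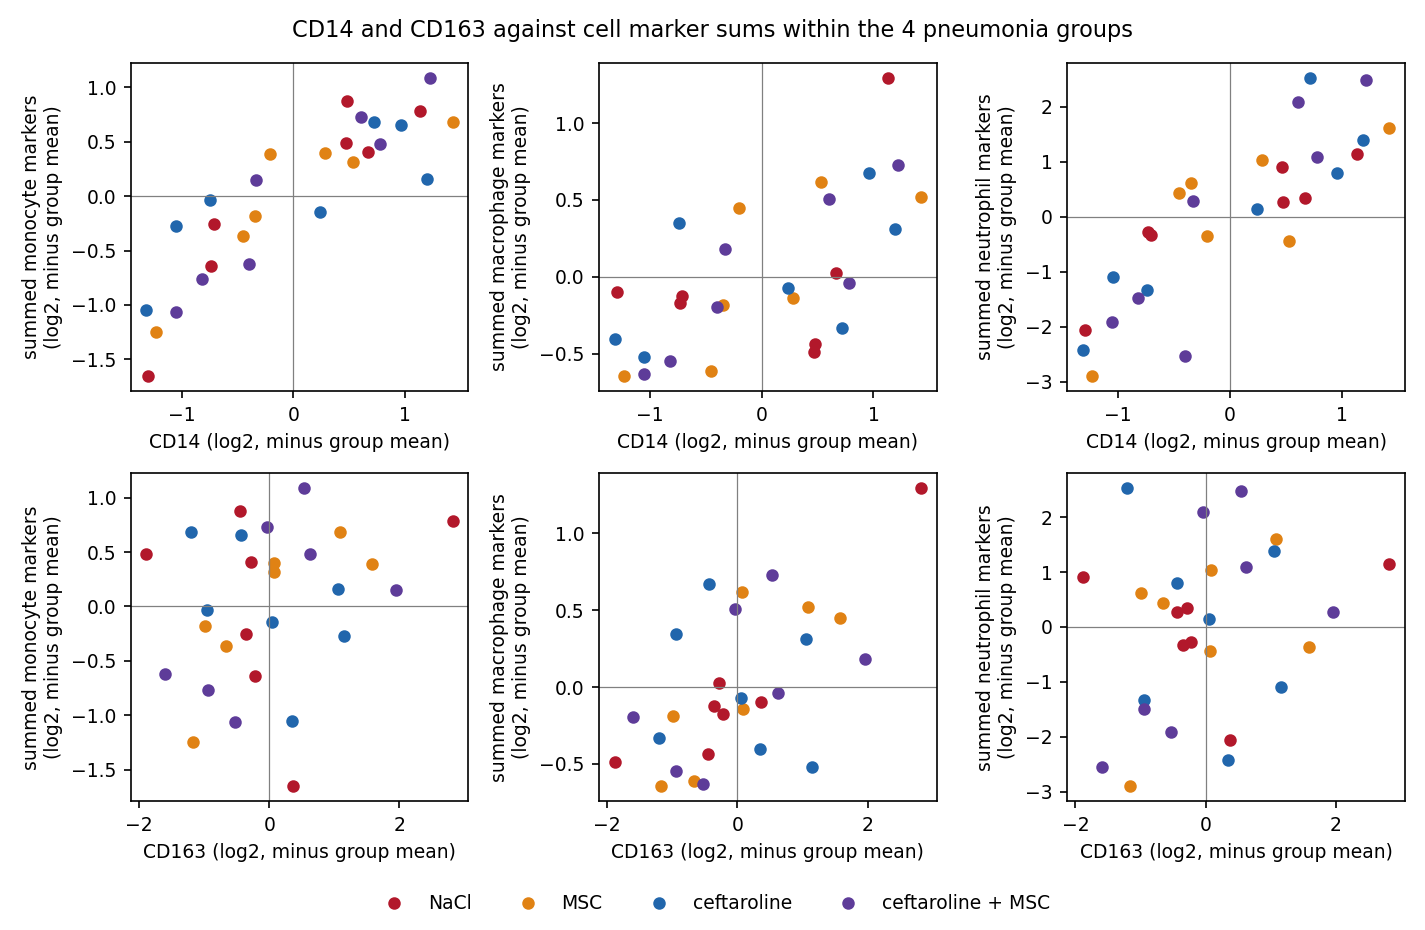
Log2 level of CD14 (top) and CD163 (bottom) against the summed level of monocyte, macrophage and neutrophil markers in 28 pneumonia libraries, each minus its group mean. The CD14 points follow the monocyte and neutrophil sums (r 0.88 and 0.85), and the CD163 points scatter more widely, with NaCl library 1 at the far right.

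No relation of CD163 with signals of its pathway passed the test. Its r was 0.17 with IL10, 0.07 with IL6, -0.07 with HMOX1 and 0.18 with FKBP5, and its rho was 0.20, 0.06, -0.07 and 0.20 (permutation test, p from 0.358 to 0.744 for r, adjusted p from 0.537 to 0.744), and the 2 farthest libraries left out gave -0.01, 0.18, -0.03 and 0.15. CD14 had r of 0.78 with IL10, 0.56 with IL6 and 0.65 with HMOX1, and rho of 0.82, 0.52 and 0.63 (permutation test, p = 4e-05, 0.00365 and 0.00043 for r, adjusted p = 0.000267, 0.0104 and 0.00215). These r were 0.74, 0.52 and 0.58 without the 2 farthest libraries and 0.71, 0.64 and 0.67 in the libraries without a title ending. With FKBP5 the r of CD14 was 0.28 and rho 0.26 (permutation test, p = 0.191 and adjusted p = 0.379 for r), and r was 0.16 without the 2 farthest libraries. In the libraries without a title ending the r of CD14 with FKBP5 was 0.56 and rho 0.49 (permutation test, p = 0.0186 and 0.0376, not adjusted). The 4 genes of this paragraph were picked after the marker relations had been seen.

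The genes most like CD14 over the 28 libraries, of 6638 compared, were PIK3R5 (Pearson r 0.94), a regulatory subunit of a leukocyte phosphoinositide kinase, RP2 (0.93), ATP6V1B2 (0.93), a subunit of the proton pump that acidifies lysosomes, RPS6KA1 (0.93), a kinase downstream of ERK, and TMCO6 (0.92). In the RefSeq annotation of the rabbit assembly mOryCun1.1, CD14 lies inside the span of TMCO6. Whether counting used the strand is not stated, so reads of CD14 and TMCO6 cannot be told apart where the genes overlap. The mean of TMCO6 over all libraries was 316 normalized reads. Those most like CD163 were SLC39A7 (0.70), a zinc transporter, CD72 (0.66), a receptor of B cells, AAGAB (0.66), C1QB (0.66), a chain of complement C1q and itself on the macrophage list, and AIFM1 (0.66), a mitochondrial flavoprotein. The highest r of any gene with CD163 was thus below the fifth highest with CD14, and in the 23 libraries without a title ending TMCO6 ranked 6 for CD14 and SLC39A7 ranked 1 for CD163.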

How the data were processed

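The authors deposited 4 tables, 1 per comparison, each holding 14 of the 35 lung libraries. The labels' protocols name stranded mRNA libraries, single reads of 75 bp, bcl2fastq2 2.18.12 for demultiplexing, and Cutadapt 1.15, which kept reads over 10 bp. The submitters' processing notes list DESeq2 1.24.0, featureCounts 1.5.2 and TopHat2 2.1.1. Build and annotation: not given in the sources used here. Per the file headers, the deposited signal of a gene in a library is its normalized read number. The tables also hold the authors' log2 fold change and error, a Wald statistic (a score) and p-values.

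Within a tolerance of 1e-06, 100% of the values were whole multiples of the value of 1 read, which gave back the reads. The 21 columns present in more than 1 table held the same reads. No library was a copy of another in its group (chi-square per degree of freedom at least 37.2). Reads per library ran from 7567008 to 33209729, which limits the precision of genes with few reads.

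For each table, log2(value + 1) was fitted by limma 3.58.1 (R 4.3.3, trend, two-sided) for genes reaching 10 in 7 or more of its libraries. Calls needed a Benjamini-Hochberg adjusted p under 0.05 across all tested genes. Fold changes are on that scale, which understates those of low genes. Levels across groups, the 6 other pairs of groups and the change of the MSC effect by ceftaroline used the recovered reads, DESeq2 1.42.0 size factors over 35 libraries and 1 limma fit of 10276 genes. Alternatives were edgeR 4.0.16 and DESeq2 on the recovered reads, another pseudocount, no filter, title endings, a block on the title number and left-out libraries. The scripts were tested on simulated data. Correlation p-values come from exact permutations (7 libraries) or 100000 permutations within groups.

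CD14, CD163 and the 15 gene lists were chosen with earlier results of these data known. The rule for named genes took, per list and comparison, the 2 members with the lowest p where any was called and otherwise 1, and the 5 genes with a mean of at least 50 normalized reads most like each receptor. Some genes it takes in the treatment comparisons are covered by counts only, and further pathway members were named after their values were seen. Values of 1 list member are not reported here.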

Additional observations from a re-analysis of the deposited data

Results flagged for a closer look

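Of 15 sets of 7 values examined (each receptor as normalized reads and their log2 ratio in each group), 3 held 1 library far from the other 6 by Dixon's criterion. For normally distributed values, chance meets it in about 1 of 20 sets. The receptor levels were examined without a log scale, where single high values stand out more, so that rate need not hold for them. CD163 in library 1 of the NaCl group was at 2389 normalized reads, where the others ran from 90.4 to 435. That library had 1513 reads of CD163, ranked 1 of 35 for S100A9, 2 for S100A8 and IL10, 3 for MSR1, FKBP5 and HPX, 4 for HP and HMOX1, 6 for CLEC4E, 10 for HBB2 and 18 for IL6, and its CD14, at 33674, was the highest of all. CD163 in library 7 of the combined group was at 704, where the others ran from 59.1 to 280. It had 1276 reads of CD163, and it ranked 5 of 35 for HP, 7 for HPX, 13 for MSR1, 16 for CLEC4E, 17 for IL10, 22 for IL6 and S100A8, 23 for FKBP5 and S100A9, 24 for HMOX1 and 34 for HBB2. The log2 ratio of CD163 to CD14 in library 2 of the MSC group was -3.88, where the others ran from -6.31 to -5.60. What sets these libraries apart was not tested.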

How the results depend on the processing

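Both receptors kept their direction and call for NaCl against healthy under every alternative run, from 1.70 to 3.54 for CD14. No alternative called either receptor for MSC or ceftaroline against NaCl or for the combined group against ceftaroline. CD14 in the combined group against healthy was not called without title endings (1.52) or with the ending as a covariate (0.73). Signs of uncalled differences turned in fits on libraries without endings: ceftaroline minus MSC to -0.27 for CD14 (-0.20 with the covariate) and -0.30 for CD163, the change of the MSC effect on CD163 to -0.11, and the ratio of CD163 to CD14 to 0.58 for MSC and 0.55 for ceftaroline against NaCl. LYVE1, a macrophage marker, went to -0.26 between NaCl and healthy without endings. The causes were not tested. Genes called between NaCl and healthy fell to 3607 without endings, from 5788, where fewer libraries were fitted. For MSC against NaCl, where limma called 0, the counts were 336 with DESeq2, 1 with no filter, 7 without endings, 1 without the NaCl library marked S00, and 270, 168 and 318 in the fit over 35 libraries as such, without endings and with the covariate. For ceftaroline against NaCl, also 0, they were 501 with DESeq2, 2 with the covariate, and 320, 288 and 50 in the same fits over 35 libraries. For the combined group against ceftaroline, with 4, they were 11 with edgeR under TMM and RLE scaling, 108 with DESeq2, and 8, 22 and 11 over 35 libraries. Leaving out 1 library at a time moved CD14 in the combined group from -1.54 to -1.13 against NaCl and from 1.14 to 1.52 against healthy. It turned the sign of ceftaroline minus MSC for CD14 (-0.16 to 0.29) and CD163 (-0.066 to 0.39), of the combined group minus MSC for CD163 (-0.57 to 0.020), of the change of the MSC effect on CD163 (-0.20 to 0.58), and of the ratio for MSC (-0.56 to 0.12) and ceftaroline (-0.48 to 0.24) against NaCl. Genes called ran from 0 to 5 for MSC, from 0 to 176 for ceftaroline (176 without NaCl library 1) and from 2 to 14 for the combined group against ceftaroline. CD163 in healthy lung, at 5 to 98 reads, is where depth limits most. Titles of 1 letter and a number share 3 numbers between MSC and NaCl, 4 between ceftaroline and NaCl, 7 between the combined group and ceftaroline, and none between NaCl and healthy. The deviations of same-numbered libraries from their group means had correlations over genes from 0.089 to 0.44, -0.30 to 0.24 and -0.38 to 0.48 in these comparisons. In no comparison did every library correlate best with its own number, though numbers 1 and 7 did so both ways between MSC and NaCl. This check cannot tell whether same-numbered libraries share more than the number. With that number as a replicate block, added after seeing the data and limited to libraries that share 1, genes called were 0, 0 and 0, CD14 in the combined group against NaCl was -1.90 over 4 pairs and not called (limma, adjusted p = 0.0976), and signs turned for CD163 with MSC against NaCl (0.062) and CD14 in ceftaroline minus MSC (-0.26), neither called.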
